A study of Mus musculus with 9 samples.

Results

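Translation initiation factors (eIFs) bring the ribosome, the initiator tRNA and an mRNA together at a start codon, and elongation factors (eEFs) deliver aminoacyl-tRNAs and move the ribosome along the message. The genes described here are the 67 whose symbol begins with Eif or Eef followed by a digit, of 14971 protein-coding genes in the deposited tables. Genes of the 4E-binding proteins (symbols beginning with Eif4ebp) were left out. The choice used gene names only and no measured value. There were 53 Eif genes and 14 Eef genes, of which 65 were in both tables and 2 in the table of Control and ORX libraries alone. The group holds the factors themselves and also kinases and methyltransferases that act on them.

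Tibialis anterior, a fast muscle at the front of the lower leg, was taken from male C57BL/6J mice in 3 groups. Control mice kept their testes (their columns are headed sham), ORX mice had been orchiectomised, and ORX+DHT mice had been orchiectomised and given dihydrotestosterone, a potent androgen. Each group had 3 libraries, numbered in the labels as biological replicates, and muscle was collected 4 weeks after treatment. The dose and route of dihydrotestosterone, the ages of the mice and the treatment given to Control mice beyond the column heading are not given in the sources used here.

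Cap-dependent initiation starts when eIF4E binds the mRNA cap as part of eIF4F, with the scaffold eIF4G and the helicase eIF4A, while eIF3 and the eIF2 complex carry the initiator tRNA on the small ribosomal subunit. Initiation is slowed when eIF2 is phosphorylated, which blocks its exchange factor eIF2B, and when 4E-binding proteins hold eIF4E. In adult muscle fibres the elongation factor eEF1A is made mainly as the isoform eEF1A2, whereas most other cells use eEF1A1. Elongation is slowed by eEF2K, the kinase of eEF2.

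Libraries held 1340209 to 1682235 reads over the listed genes. Control library 1 stood apart from the other 8 on the first principal component of all genes (score -47.2, against 0.716 to 10.6), so results that involve Control are given with this in view. The muscle label held up against its markers: Acta1, Ckm, Ttn, Mb and Myh4 were read in every group, with summed normalised counts of 155743 to 210680 per library. Normalised counts below are reads divided by a scaling factor of the library, set jointly for all 9 libraries.

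Members differed widely in level. Levels of different genes are compared as normalised counts per kb of exon, averaged over the 9 libraries. Eef1a2 was the most abundant member at 1384 per kb, followed by Eef2, the translocase, at 659 per kb and Eif1, which guards start codon choice, at 244 per kb. The eIF4G scaffold gene Eif4g1 (191 per kb), Eif5a (185 per kb), whose product helps ribosomes past slow stretches such as runs of proline, and Eef1g (172 per kb), for a subunit of the eEF1 exchange complex, came next. At the low end of the level were Eif5a2 at 0.718 per kb and Eif4a3l2 at 0.953 per kb. Eef1akmt3 and Eif4e1b had 1 read each over the 6 Control and ORX libraries.

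**Figure D1:**
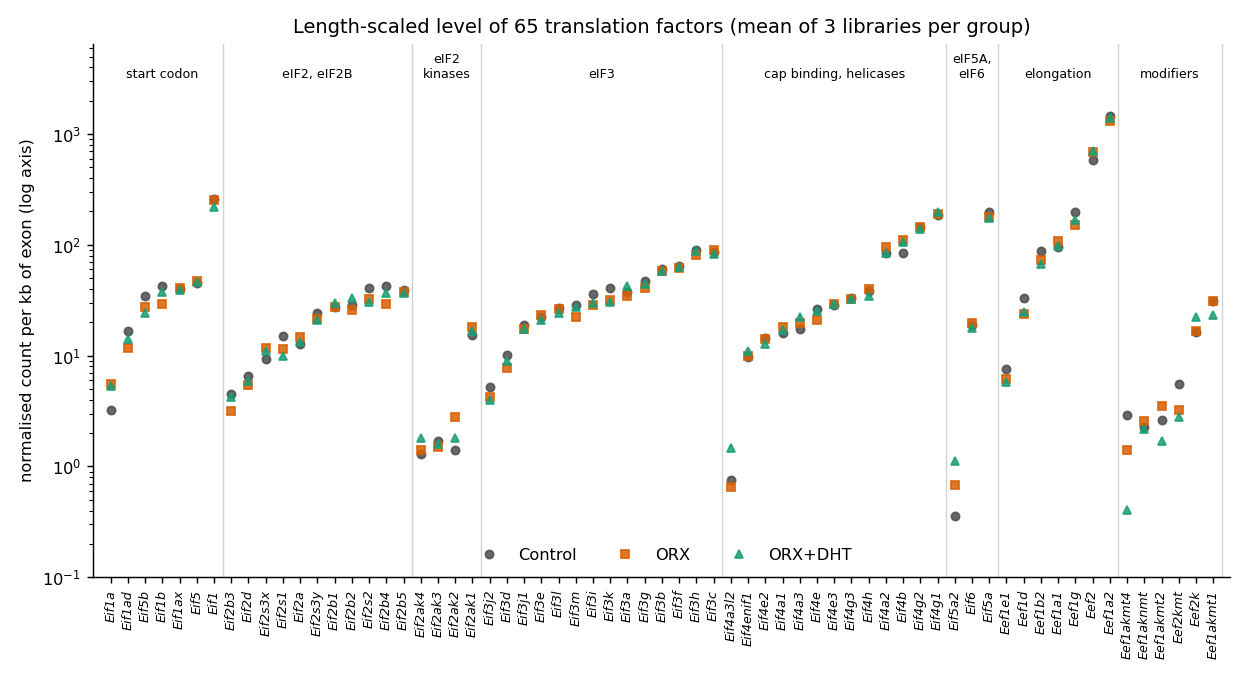
Level of 65 translation factors, grouped by role, as normalised counts per kb of exon on a log axis; each symbol is the mean of 3 Control, ORX or ORX+DHT libraries. Eef1a2 and Eef2 lie highest, and most symbols of the 3 groups overlie each other except among low members such as Eif5a2, Eef1akmt4 and Eif1a.

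Pairs of related genes showed which form this muscle used. Eef1a2 made up 93.2% to 94.6% of the summed per-kb level of Eef1a2 and Eef1a1 in Control libraries. Its share lay between 91.8% and 93.2% in ORX libraries, and in ORX+DHT between 92.4% and 94%. Of the eIF4A helicase pair, Eif4a2 made up 81.6% to 85.9% over all 9 libraries. Eif5a made up 98.99% to 99.9% of the level shared with Eif5a2. The Y-linked gene for the gamma subunit of eIF2, Eif2s3y, was read in all 9 libraries, and made up 58.3% to 82.1% of the level shared with its X-linked partner Eif2s3x. The groups overlapped in each of these shares. For Eif1 and its relative Eif1b they did not: Eif1 made up 89.4% to 90.1% in ORX libraries, above the 85.3% to 86.3% of Control and the 82.7% to 87.0% of ORX+DHT. Of the other pairs looked at, Eif1ax made up 89.6% to 95.6% of the level shared with Eif1a in Control and 87.3% to 88.7% in ORX libraries. These did not overlap, while ORX+DHT (86.6% to 90.6%) overlapped both. Groups overlapped for Eif4g1 with Eif4g3 and for Eif4e with Eif4e2. The pairs Eif1 with Eif1b and Eif1ax with Eif1a were named after their values were seen, and no share was tested.

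Counts of some members are uncertain because other genes carry the same sequence. Every stretch of 50 bases in a member's GENCODE M21 transcripts was looked for in the transcripts of all other genes. The share found elsewhere was 91.8% for Eif3j2, 50.9% for Eif3j1, 44.2% for Eef1g, 40.4% for Eef1a1 (shared with 21 other genes, 18 of them pseudogenes), 37.2% for Eif3d, 34.6% for Eif2s3x and 28.4% for Eif4a1. How reads that fit several genes were counted is not given in the sources used here, so the level of Eef1a1 and Eif4a1 against their partners may be set too low, and this was not tested.

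To ask how translation factor mRNAs responded to the androgen, ORX+DHT was compared with ORX muscle. No member passed the test: 0 of 59 members that passed the filter were called by limma at an adjusted p under 0.05, where 4.08% of all 8770 genes tested were called (2.38% higher and 1.7% lower). Their median log2 fold change was -0.03, against 0.01 for all genes tested, with 24 members above 0 and 35 below. An unadjusted p under 0.05 was found for 6 members by limma (10.2%, against 14.3% of all genes), 8 by edgeR and 2 by DESeq2, and both count tools called 0. The data limited most differences closely: the 95% interval of the log2 fold change lay within 1 of 0, a 2-fold change, for 57 of 59 members (96.6%, against 88.1% of all genes), and within 0.5 for 41 (69.5%, against 36.4%). Intervals tend to be wider for genes with few reads, and members were more often well read. A filter at a mean of 50 kept 45 members and 3962 of all genes. Whether members were steadier than other genes of like level was not tested.

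The 2 members nearest the threshold were Eef2k and Eif3a. Eef2k (ENSMUSG00000035064, GRCm38 chromosome 7, 120842831 to 120907450), for the kinase that inhibits eEF2, stood at 103, 126 and 144 normalised counts in ORX libraries 1, 2 and 3 and at 164, 179.8 and 156 in ORX+DHT. Every ORX+DHT library lay above every ORX and every Control library, the latter at 94.9, 123 and 145. The log2 fold change over ORX was 0.43 (SE 0.13, 95% interval 0.16 to 0.70, limma adjusted p 0.0716). Its adjusted p depended on the fit, from 0.0189 to 0.433 over all alternatives, and was 0.0189 without ORX library 3.

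Eif3a (ENSMUSG00000024991, GRCm38 chromosome 19, 60761117 to 60790658), for the largest subunit of the eIF3 scaffold, stood at 289.6, 315 and 291 in ORX and 404, 350.0 and 353 in ORX+DHT libraries. Every ORX+DHT library lay above all 6 others, while Control, at 319.6, 346 and 309, overlapped ORX. Its log2 fold change was 0.30 (SE 0.09, 95% interval 0.11 to 0.50, limma adjusted p 0.0866, from 0.0330 to 0.404 over the alternatives). The other 13 eIF3 genes had log2 fold changes between -0.16 and 0.29 in this comparison, 6 of them above 0 and 7 below.

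**Figure D2:**
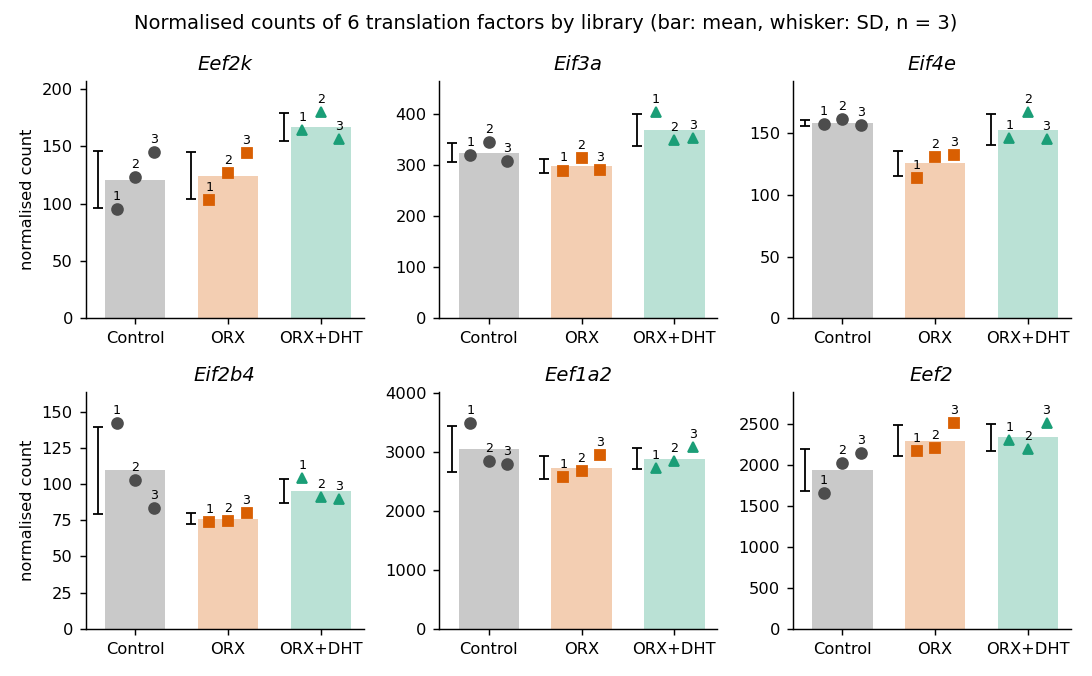
Normalised counts of Eef2k, Eif3a, Eif4e, Eif2b4, Eef1a2 and Eef2 in each of the 9 libraries (numbered symbols), with bars for the group mean and whiskers for the SD (n = 3). The 3 ORX+DHT libraries of Eef2k lie above the 6 others. The 3 ORX libraries of Eif4e and Eif2b4 lie below the 6 others, as do the 3 Control libraries of Eef2. The groups overlap for Eef1a2.

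For the abundant elongation factors, differences between ORX+DHT and ORX were small against their errors. Eef1a2 stood at 2568, 2676 and 2945 in ORX and 2724, 2848 and 3077 in ORX+DHT libraries, with overlapping groups and a log2 fold change of 0.08 (95% interval -0.09 to 0.25, limma adjusted p 0.718). Its sign depended on the scaling, since quantile normalisation gave -0.28 (adjusted p 0.0596). Eef2 stood at 2165, 2208 and 2507 in ORX and 2306, 2189.7 and 2514 in ORX+DHT, a log2 fold change of 0.03 (95% interval -0.14 to 0.20, limma adjusted p 0.925). The interval of Eef2 thus lay within a narrower range than that of its kinase gene Eef2k, and the difference between the genes was not tested. The genes Eef1g, Eef1b2 and Eef1d, for subunits of the exchange complex that recharges eEF1A with GTP, had log2 fold changes of 0.13, -0.12 and 0.06, and Eef1a1 had -0.15.

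Among factors of the cap-binding complex, Eif4e (ENSMUSG00000028156, GRCm38 chromosome 3, 138526179 to 138559696), for the cap-binding protein, stood at 114, 130.5 and 132 in ORX and 146, 167 and 145 in ORX+DHT libraries. The groups did not overlap, and the log2 fold change was 0.28 (SE 0.11, 95% interval 0.04 to 0.52), which did not pass (limma adjusted p 0.242). Eif4h, for a helper of the eIF4A helicase, stood at 224, 224 and 219 in ORX and 180.4, 197 and 195 in ORX+DHT (log2 fold change -0.22, limma adjusted p 0.289). The scaffold genes Eif4g1, Eif4g2 and Eif4g3 had log2 fold changes of 0.06, -0.06 and -0.004, each with a 95% interval inside -0.22 to 0.22. The helicase genes Eif4a1 and Eif4a2 had -0.10 and -0.17, with overlapping groups.

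Of the 5 genes for eIF2B, the exchange factor that recharges eIF2, Eif2b4 (ENSMUSG00000029145, GRCm38 chromosome 5, 31187558 to 31193430) stood at 73.6, 74.2 and 80.2 in ORX and 104, 90.9 and 89.9 in ORX+DHT libraries. Each ORX+DHT value exceeded each ORX value, by 0.32 on the log2 scale (SE 0.13, 95% interval 0.05 to 0.59, limma adjusted p 0.24). Eif2b2 and Eif2b3 also had groups that did not overlap, at 0.35 and 0.40 on the log2 scale (adjusted p by limma, 0.333 and 0.434). Eif2b1 and Eif2b5, the latter for the catalytic subunit, had 0.12 and -0.04. The eIF2 subunit genes Eif2s1, Eif2s2, Eif2s3x and Eif2s3y had -0.23, -0.08, -0.10 and -0.03.

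Groups did not overlap for 15 of 59 members in this comparison, or 25.4% against 19.5% of all genes tested. Of these, 10 were higher in ORX+DHT (16.9%, against 10.4% of all genes) and 5 lower (8.47%, against 9.13%). In bulk muscle, a change in the number of cells of a type and a change in RNA per cell cannot be told apart. Summed markers of fibroblasts (Pdgfra, Dcn, Col1a1, Col3a1 and Lum, 5 of 5 read) lay between 2876 and 3841 in ORX libraries, between 1700.4 and 2388 in ORX+DHT and between 1352 and 2729 in Control. Within that list Col1a1 and Lum were called lower in ORX+DHT than in ORX (log2 fold changes -1.18 and -1.79), Col3a1 had -0.46, and Pdgfra and Dcn had 0.06 and -0.05. Summed endothelial markers (Pecam1, Cdh5, Kdr, Tie1 and Emcn) lay between 861 and 937 in ORX+DHT, above every ORX library (698 to 855) and every Control library (647 to 830), as did Eef2k and Eif3a. limma called 0 of the 5 endothelial genes in ORX+DHT vs ORX, and 1 (Cdh5) had an unadjusted p under 0.05 (log2 fold change 0.24). Summed muscle fibre markers lay between 155743 and 168530, 169795 and 187191, and 193784 and 210680 in ORX, ORX+DHT and Control. Within that list Acta1 and Mb were called higher in ORX+DHT than in ORX by limma (log2 fold changes 0.47 and 0.51). Ttn, Ckm and Myh4 were not called, at 0.10, 0.07 and -0.08. The part of these shifts in the values of Eif4e, Eif2b4, Eef2k and Eif3a was not tested.

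To ask how the same mRNAs stood after orchiectomy alone, ORX was compared with Control. limma called 0 of 60 members tested. Only 0.0579% of all 8631 genes were called (5 genes, 0.0463% lower and 0.0116% higher), so a count of 0 among 60 members is near the background and does not show that members were unchanged. An unadjusted p under 0.05 was found for 7 members by limma (11.7%, against 7.21% of all genes), 6 by edgeR and 1 by DESeq2, which also called 0. The median log2 fold change of members was -0.02 (all genes -0.01), with 29 above 0 and 31 below under the deposited scaling and 34 above and 26 below after quantile normalisation. The 95% interval lay within a 2-fold change for 53 of 60 members, 88.3%, against 80.6% of all genes, and within 0.5 for 22 (36.7%, against 16%). Here too, members were not compared with genes of like level. Groups did not overlap for 13 members (21.7%, against 14.3%), 6 of them higher in ORX (6.28% of all genes) and 7 lower (8.06% of all genes).

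Eif4e stood at 157, 161 and 157 normalised counts in Control libraries, all above the 114, 130.5 and 132 of ORX. Its log2 fold change was -0.34 (SE 0.15, 95% interval -0.66 to -0.01, limma adjusted p 0.684). Eif2b4 stood at 142, 103 and 83.4 in Control, each above every ORX library (log2 fold change -0.49, SE 0.20, limma adjusted p 0.675; -0.28 without Control library 1). The members with the smallest unadjusted p were Eif2ak2 and Eif1a, both low. Eif2ak2, for the kinase PKR that phosphorylates eIF2 in response to double-stranded RNA, stood at 8.74, 7.74 and 4.97 in Control and 17.7, 13.6 and 11.6 in ORX (log2 fold change 0.92, SE 0.34, limma adjusted p 0.669). Eif1a, for an autosomal form of the start codon factor eIF1A, stood at 8.74, 17.7 and 13.9 in Control and 22.6, 20.5 and 25.6 in ORX (0.77, SE 0.30, limma adjusted p 0.675), and its log2 fold change was 0.51 without Control library 1. Eif1ad, for a protein with an eIF1A-like domain, stood at 52.4, 39.8 and 48.7 in Control and 35.3, 35.8 and 27.3 in ORX, every ORX library being lower (-0.51, SE 0.21, limma adjusted p 0.675). The same ORX libraries served in both comparisons, so opposite signs for Eif4e and Eif2b4 in them are not independent.

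In 5 members the 3 ORX libraries lay below all 6 others: Eif4e, Eif2b3, Eif2b4, Eif3d and Eif1b. That was 8.62% of the 58 members that passed the filter in all 3 comparisons, against 3.51% of all 8416 such genes, and 0 members had ORX above all others, against 1.89%. Leaving out Control library 1 gave 5 members below and 1 above, against 5.53% and 3.29% of all genes. Eif3d, for a cap-binding subunit of eIF3, stood at 38.3, 39.2 and 37.2 in ORX, 56.2, 46.4 and 48.7 in Control and 40.5, 48.3 and 43.5 in ORX+DHT. Eif1b, for a close relative of eIF1, stood at 27.5, 34.1 and 36.4 in ORX against 38.7 to 62.4 in Control and 40.5 to 45.4 in ORX+DHT, and Eif2b3 at 22.6, 19.6 and 19.9 against 25.4 to 33.7 and 25.1 to 32.4. Eif2b3, Eif3d and Eif1b were named after their values were seen, and none of the 5 genes passed the test in any comparison under the main analysis.

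The remaining comparison set ORX+DHT against Control, on the joint scale, and asks how far the factors stood from intact muscle when androgen was given. limma called 0 of 59 members, where 0.0349% of all 8595 genes were called (3 genes, 0.0233% lower and 0.0116% higher), a background against which a count of 0 tells little. An unadjusted p under 0.05 was found for 5 (8.47%, against 6.48% of all genes), by edgeR for 5 and by DESeq2 for 3, with 0 called by either. Eef2k was again the member with the smallest unadjusted p, with a log2 fold change of 0.48 (SE 0.18, 95% interval 0.09 to 0.87, limma adjusted p 0.736), on the same ORX+DHT libraries as before. Leaving out Control library 1 gave 0.32 for Eef2k, -0.35 for Eif2s1, -0.19 for Eif5b and 0.46 for Eif1a. Eif2s1, for the eIF2 subunit that is phosphorylated under stress, stood at 99.9, 59.7 and 63.6 in Control and 44.6, 58 and 43.5 in ORX+DHT (-0.57, SE 0.23, limma adjusted p 0.736). Eif5b, for the factor that joins the ribosomal subunits, stood at 462, 282 and 257 in Control and 229, 235 and 244 in ORX+DHT (-0.45, SE 0.20, limma adjusted p 0.736). Eif1a stood at 23.3, 24.2 and 18.8 in ORX+DHT, each above every Control library (0.72, SE 0.30, limma adjusted p 0.736). Eef2kmt, for a methyltransferase of eEF2, stood at 18.7, 8.85 and 16.9 in Control and 5.07, 8.7 and 8.89 in ORX+DHT, with overlapping groups (-0.86, SE 0.39, limma adjusted p 0.736), and did not pass the filter without Control library 1. For Eif4e the difference from Control was -0.06 (95% interval -0.37 to 0.26). Groups did not overlap for 7 of 59 members (11.9%, against 14% of all genes), 5 higher in ORX+DHT (6.86% of all genes) and 2 lower (7.12% of all genes). The 95% interval lay within a 2-fold change for 52 members (88.1%, against 80.4%) and within 0.5 for 23 (39%, against 16.3%), again without a comparison at like level.

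**Figure D3:**
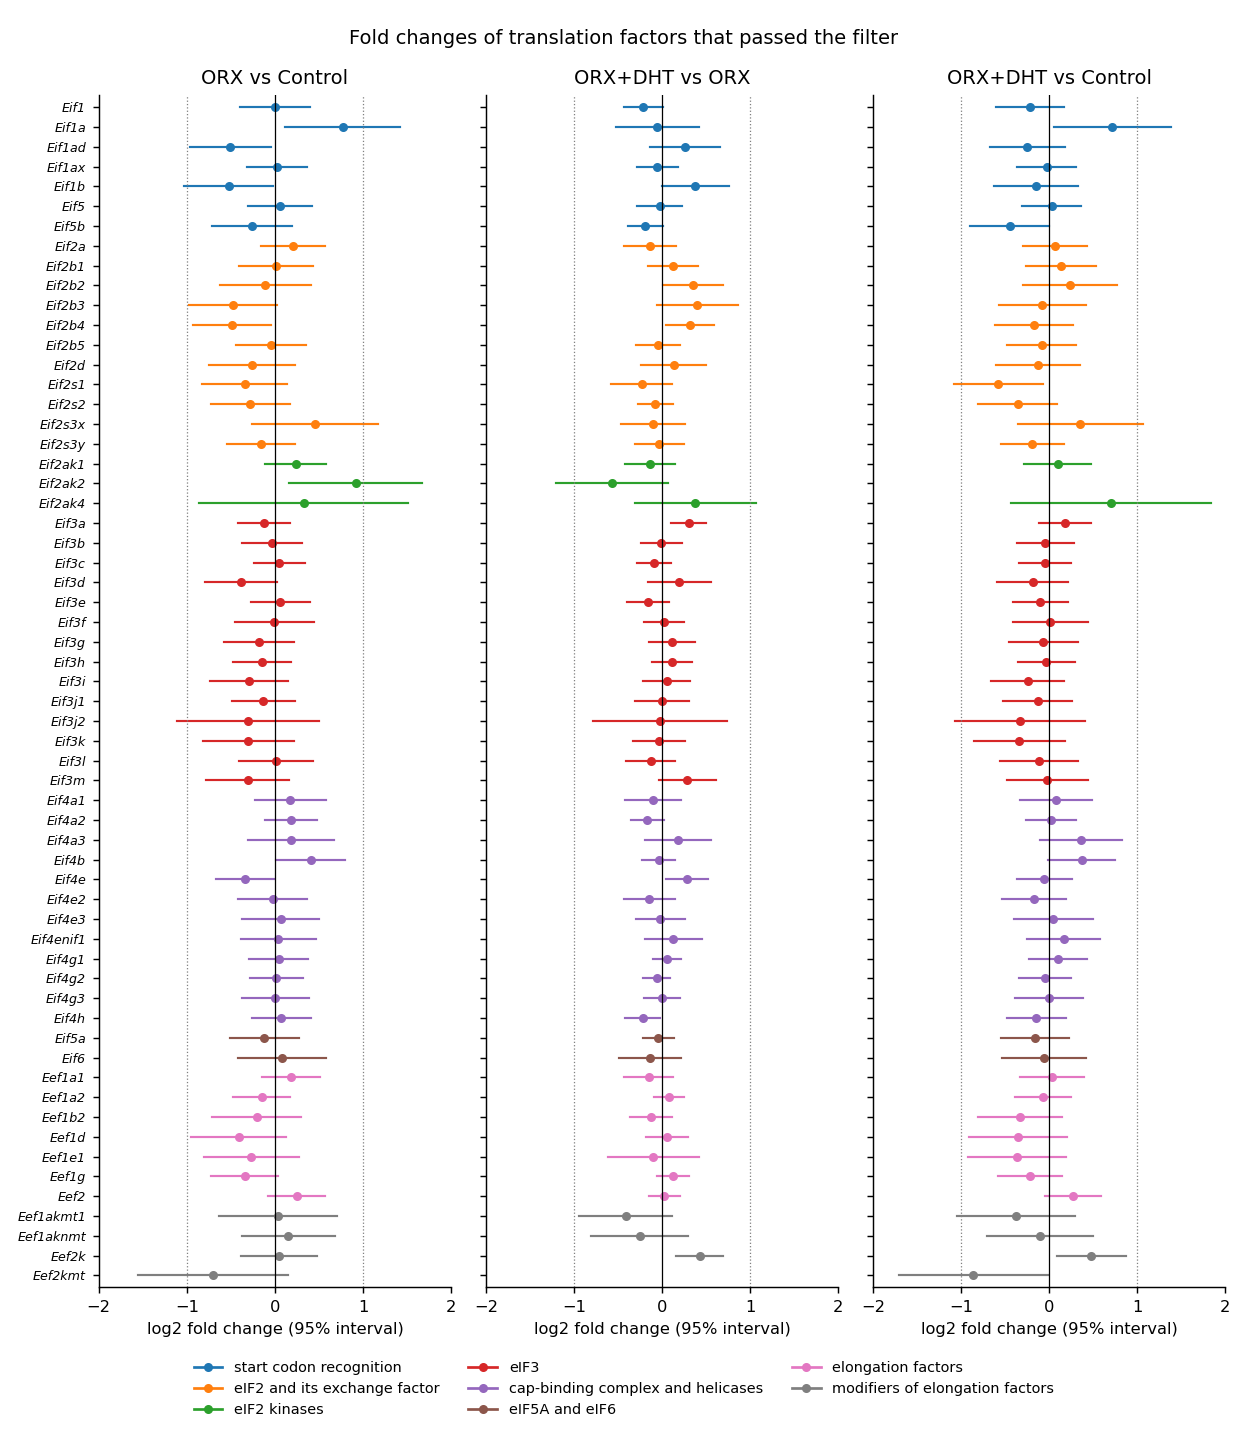
log2 fold change (point) and 95% interval (line) of every member that passed the filter, in 3 comparisons, coloured by role; dotted lines mark a 2-fold change. Intervals are narrower in ORX+DHT vs ORX than in the comparisons with Control, and Eef2k and Eif3a have the intervals farthest above 0 there, at 0.16 to 0.70 and 0.11 to 0.50.

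By role, 0 members were called in any comparison by limma, which does not test whether a role leans to one side, and these counts are a description. The 14 eIF3 genes had 7 log2 fold changes above 0 and 7 below in ORX+DHT vs ORX, 3 above and 11 below in ORX vs Control (median -0.14), and 2 above and 12 below in ORX+DHT vs Control (median -0.08). The 7 elongation factors had medians of 0.03 in ORX+DHT vs ORX and -0.21 in ORX vs Control. The 12 tested genes of the cap-binding group had 4 log2 fold changes above 0 and 8 below in ORX+DHT vs ORX (median -0.03). In ORX vs Control they had 10 above and 2 below (median 0.05). Role counts were not made without Control library 1. Leaving it out took Eif4g1, Eif4g2 and Eif4g3 in ORX vs Control to -0.10, -0.07 and -0.18, from 0.04, 0.01 and 0.006. Eif4a1, Eif4a2, Eif4b and Eif4h stayed above 0 and Eif4e below. Eef1b2, Eef1g and Eef1a2 had 0.08, -0.16 and -0.05, from -0.21, -0.35 and -0.15, while Eef1a1 and Eef2 stayed above 0. Eif3f had 0.23, from -0.006, while Eif3a, Eif3d, Eif3g and Eif3h stayed below 0. Of the 4 eIF2 kinase genes, Eif2ak1, for the heme-regulated kinase, was the highest at 16.7 per kb. Eif2ak2, Eif2ak3 and Eif2ak4 were low members, at 2.0, 1.6 and 1.5 per kb. Eif2ak3 stood between 5.12 and 16.2 normalised counts and did not pass the filter in any comparison. Eif2ak4, for the amino acid sensor GCN2, had a log2 fold change of 0.38 with a 95% interval of -0.31 to 1.06 in ORX+DHT vs ORX, an interval that reaches past a 2-fold rise at this depth. Eif3f, for an eIF3 subunit, and Eif6, for a factor that keeps the large ribosomal subunit apart, had log2 fold changes of 0.02 and -0.14 in the same comparison.

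Among Control libraries, number 1 lay farthest from the others. It gave the highest of the 9 values for 30 of 58 members (51.7%, against 27.7% of all genes) and the lowest for 11 (19%, against 24.8%). Eef1d, for the delta subunit of eEF1, stood at 328 in Control library 1 and at 161 and 159.9 in the other Control libraries, and Eef1b2 at 317, 168 and 179. In the other direction, Eif2s3x stood at 17.5, 38.7 and 49.7, Eif4b, for an activator of eIF4A, at 279.7, 425 and 424, and Eif2ak4 at 2.5, 15.5 and 10.9. Across the 58 members, the log2 difference of Control library 1 from the mean of the other Control libraries had a Pearson correlation of -0.40 with log10 exon length (Spearman -0.43), and across all 8416 genes -0.52 (Spearman -0.54). These points share 3 libraries and are not independent. Members of shorter annotated exon length thus tended to stand higher in this library than those of longer exon length, relative to the other Control libraries. Members of long exon length lay on both sides of 0. The length of the mRNA forms present was not measured. Without this library the ORX vs Control log2 fold change of Eef1d was -0.07 in place of -0.41, that of Eif2s3x 0.03 in place of 0.46 and that of Eif4b 0.21 in place of 0.41. The part of the length trend in these differences was not tested. Eef1b2 went from -0.21 to 0.08, while Eif4e stayed at -0.34.

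**Figure D4:**
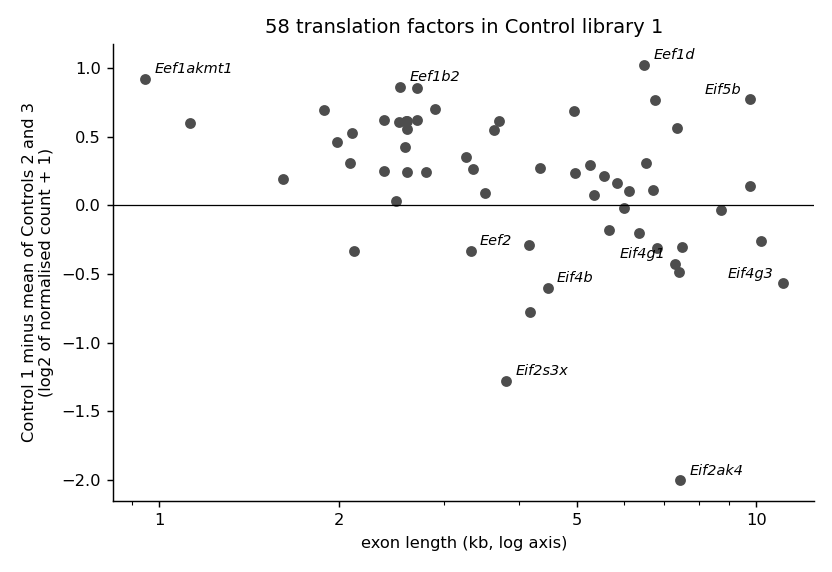
Each point is 1 of 58 translation factors: exon length in kb (log axis) against the log2 difference of Control library 1 from the mean of Control libraries 2 and 3. Members of short exon length such as Eef1akmt1 and Eef1b2 lie above 0, with exceptions such as Eif4a3. Those of long exon length lie on both sides: Eif4g3, Eif4g1 and Eif2ak4 below 0, and Eef1d, Eif5b, Eif2s2 and Eif2d above.

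In lists of genes that act with or downstream of the factors, 3 genes were called by limma, each in ORX+DHT vs ORX. The lists were chosen with earlier results of these data known. Their counts beside those of all genes are therefore a description, and no list was tested as a set. Among 14 genes of 4E-binding proteins and cap regulators, 13 were tested and 2 were called higher, where 2.38% of all genes were. Eif4ebp1, for the 4E-binding protein that restrains eIF4E, stood at 30.4, 40.9 and 55.4 in ORX and 82.1, 65.7 and 79 in ORX+DHT libraries (Control 47.4, 50.9 and 45.7; log2 fold change 0.86, limma adjusted p 0.0129). Mknk2, for a kinase that phosphorylates eIF4E on the eIF4G scaffold, rose from 481, 515 and 499 to 732, 601 and 678 (Control 415, 554 and 546), or 0.42 on the log2 scale (SE 0.09, adjusted p 0.00774 by limma). Both lost the call without ORX+DHT library 1 (limma adjusted p 0.0839 and 0.0737) and with all 9 libraries in 1 fit (0.0568 and 0.225), and Eif4ebp1 also without ORX library 1 (0.0557). Eif4ebp2, for another 4E-binding protein, had a log2 fold change of 0.11 (95% interval -0.07 to 0.29).

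Among 11 genes of the integrated stress response, the programme that follows eIF2 phosphorylation, 8 were tested and 1 was called lower, where 1.7% of all genes were. This list too was chosen with earlier results of these data known, so the count is a description. The median log2 fold change of the 8 was -0.02, against 0.01 for all genes tested. Atf4, Ddit3 and Gcn1, not called, had 0.18, 0.13 and 0.13. Atf5, Ppp1r15a, Ppp1r15b and Impact, also not called, had -0.01, -0.04, -0.30 and -0.12. Chac1, for an enzyme that breaks down glutathione, stood at 98.2, 63.1 and 160.5 in ORX and 12.2, 35.8 and 77.1 in ORX+DHT libraries, which overlapped (log2 fold change -1.59, SE 0.43, limma adjusted p 0.0453). It lost the call in 10 of 19 alternative fits, with an adjusted p of 0.68 by DESeq2. Without ORX+DHT library 1 the log2 fold change was -0.91 (limma adjusted p 0.204), and without ORX library 1, ORX library 3 or ORX+DHT library 2 the adjusted p was 0.117, 0.147 or 0.103. The genes for the enzymes that make hypusine on eIF5A from the polyamine spermidine were low: Dhps and Dohh stood at 26.3 ± 5.34 and 18.4 ± 3.30 in ORX+DHT and 30.4 ± 1.27 and 19.3 ± 4.60 in ORX muscle (SD, n = 3), with log2 fold changes of -0.22 and -0.05 that did not pass (limma adjusted p 0.71 and 0.962). No gene was called among 8 tested genes of termination, rescue and recycling, 10 mitochondrial translation factors or 2 selenocysteine insertion genes in any comparison by limma. An unadjusted p under 0.05 was found for 1 termination gene in ORX vs Control and 1 mitochondrial factor in ORX+DHT vs ORX.

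RefSeq start windows (GRCm38.p6, 250 bases before to 50 after an annotated start) were available for 52 members and were searched for letters that the androgen receptor binds. An arm of its response element, AGAACA or TGTTCT on either strand, lay in the windows of 8 members (15.4%, against 21.3% of all 27025 genes with a window), and AGAACA followed after any 3 bases by TGTTCT in 0 members and 3 genes in all. Of the 4 members nearest the threshold in ORX+DHT vs ORX, Eif3a held an arm 132 bases before its annotated start and Eef2k, Eif4e and Eif2b4 held none in these windows. The stretch in Eif3a, chr19:60790808-60790837 on the minus strand, is shown with the arm in capitals because Eif3a is the only one of these 4 with a match.
Eif3a: tcccgcaaccaaAGAACAccacagctcgcg
A match is a description of letters and not a binding site.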

How the data were processed

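Per the labels' protocols, polyA RNA was made into directional libraries with a NEBNext Ultra II kit. The submitters' processing notes list Trim Galore 0.6.7, HISAT2 2.2.1, featureCounts 2.0.1, DESeq2 1.36.0 and GRCm38. The authors deposited 2 tables of normalised counts, whose values are a signal made by dividing the reads of a library by 1 factor, with only protein-coding genes listed. Every value (100%) was a whole multiple of its column's step within 1e-06, so reads were recovered. This held for Control library 3 too, whose step of 0.992 is close to 1. The columns headed sham were taken as the Control group and matched by replicate number, and 0 columns were unmapped.

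Because the authors' scaling differed between tables, ORX vs Control and ORX+DHT vs ORX were each tested inside 1 table. ORX+DHT vs Control was tested on the 14300 shared genes after joint median-of-ratios scaling, which also gives the printed values. limma 3.58.1 (R 4.3.3, eBayes with trend) was run on log2(value + 1) for all genes with a mean of at least 10, with Benjamini-Hochberg adjustment over all of them and calls under 0.05. Fold changes on this scale understate those of low genes. edgeR 4.0.16 and DESeq2 1.42.0 on recovered reads were alternatives. The fits were also run on simulated counts with large planted changes and no outlying library. That run does not show how the fits handle smaller differences or a library such as Control library 1.

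Members named are those with the 5 smallest unadjusted p in each comparison, a fixed list of 23 central factors, and called genes of related lists, and other members named for their level, or for their role after values were seen. Members and lists were chosen with earlier results of these data known. Exon lengths are GENCODE M21 exon unions. Counting error limits low genes. The p-values set group differences against the spread between these libraries, which limma moderates over all genes.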

Additional observations from a re-analysis of the deposited data

How the results depend on the processing

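In ORX vs Control and ORX+DHT vs Control, 0 members were called in every alternative fit that was run. In ORX+DHT vs ORX, 1 member (Eef2k) was called with robust eBayes, 2 (Eef2k and Eif3a) with the replicate block and 2 with the length correction with replicate block, an alternative chosen after seeing the data. The adjusted p of Eef2k was 0.0445 with robust eBayes, 0.0189 with the block and 0.0239 with length correction and block, and that of Eif3a 0.0330 and 0.0458 in the last 2. Leaving out 1 library gave 0 to 1 members there, the 1 being Eef2k without ORX library 3, and 0 in each fit of the other comparisons. Same-numbered libraries of ORX and ORX+DHT had deviations that correlated at 0.063, 0.061 and 0.15. Libraries with different numbers gave lower values, from -0.087 to 0.025. Deviations were taken from group means and cancel within each group, so same-number and different-number values are not independent. These correlations were weak and do not settle whether the numbers mark pairs, and the main analysis did not take them as pairs. The calls of Eef2k and Eif3a depend on that choice. The replicate block gave 571 genes in ORX+DHT vs ORX against 358, and called no member in the other comparisons.

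Counts over all genes moved more. In ORX vs Control, 5 genes were called, 16 with no filter, 23 with all 9 libraries in 1 fit, 28 with DESeq2, 18 with the length correction and 12 with the length correction and block, and 1 to 51 when 1 library was left out (51 without Control library 1, 21 without Control library 3, 1 without ORX library 1 or 2, 2 without ORX library 3). In ORX+DHT vs ORX, 358 were called, 123 with all 9 libraries in 1 fit, 221 with DESeq2, 616 with the length correction and block, and 223 (without ORX+DHT library 1) to 350 when 1 library was left out. In ORX+DHT vs Control, 3 were called, 6 with quantile normalisation, 11 with all 9 libraries in 1 fit, 13 with DESeq2, 14 with the length correction, 6 with the length correction and block, and 0 (without ORX+DHT library 3, where limma gave 318 at an unadjusted p under 0.05) to 66 (without Control library 1) when 1 library was left out (1 without Control library 3 or ORX+DHT library 1). The cause was not tested.

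Over 2532 alternative fits of named genes, 2509 kept their side of the threshold, 7 gained a call and 15 lost one. Most of these fits were of genes not called in the main fit, so the 2509 says little about called genes. All 15 losses were in ORX+DHT vs ORX: Chac1 lost its call in 10 of 19 alternative fits, Eif4ebp1 in 3 and Mknk2 in 2. The log2 fold change of Eef1a2 in ORX+DHT vs ORX reversed to -0.28 under quantile normalisation. The sign also changed in 141 fits whose unadjusted p was over 0.05.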
